A study of Sedum plumbizincicola and Sedum alfredii with 13 samples.

Results

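The shoots of a cadmium (Cd) hyperaccumulator, Sedum plumbizincicola, were compared with those of a non-hyperaccumulating relative, Sedum alfredii, over 12176 transcripts that both species expressed. Members were chosen by a minimum of 10 rounded expected counts in each of the 6 shoot libraries, out of 66584 transcript clusters (here transcripts) in the whole series, so sequences read in only 1 species were left out. The shoot libraries were 6 of the 12 Illumina libraries. Sedum plumbizincicola had 2 libraries, A and B, from shoots without added Cd and 2 from shoots after 3 days in 10 µM CdCl2, and Sedum alfredii had 1 library at each of these doses. The series title marks the Sedum alfredii plants as the non-hyperaccumulator (NHE), and plant age and the number of plants per library are not given in the sources used here for the Illumina libraries.

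Hyperaccumulators are plants that carry metals from root to shoot and hold them in leaf tissue at levels that poison most species. They are known for strong metal export into the xylem, for transport of metal ions into leaf vacuoles, and for organic ligands that bind the metal on the way. In non-accumulating plants most Cd is kept back in the root, and what reaches the leaf sets off chelation, antioxidant and stress responses. Which of the transcripts below belong to these systems cannot be said, because the deposited IDs are numbers of an assembly and 0 of them carry a gene name. Nor can the tissue label be checked against leaf markers, and no sequence of a transcript is shown for the same reason.

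The kept transcripts took most reads of every shoot library. They held 90.8% to 91.6% of the counts in the 4 Sedum plumbizincicola libraries, and 92.9% and 88.6% in the untreated and Cd-treated Sedum alfredii libraries. Library totals ran from 1861294 to 2125017 counts in Sedum plumbizincicola and were 4670429 and 3580013 in Sedum alfredii, so the species and the depth of sequencing cannot be told apart. A further 2382 transcripts reached 10 counts in each Sedum plumbizincicola shoot library but not in both Sedum alfredii ones, 827 of them with 0 counts there, and 4441 did the reverse, 1129 of them with 0 counts in Sedum plumbizincicola. The kept transcripts were long, with a median length of 1392 bases against 394 for all clusters, and only 7.79% had a single isoform against 66.7% of all. Just inside the minimum, the 1007 transcripts whose lowest library held 10 to 12 reads had a median absolute log2 ratio of 1.11 between the species, and just outside it the 1171 with 7 to 9 reads had 1.26.

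Species was the main division among the shoots. On the log2 CPM scale (CPM, counts relative to the library total as scaled by TMM over the kept transcripts) the 4 Sedum plumbizincicola libraries correlated with each other at 0.952 to 0.970 and the pair of Sedum alfredii libraries at 0.942, while libraries of different species correlated at 0.605 to 0.645. These are correlations across 12176 transcripts, which are not independent replicates. Within Sedum plumbizincicola, libraries of the same letter at different doses lay closer (median absolute log2 difference 0.21) than libraries of different letters at the same dose (0.25).

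The transcripts that differed between the species were a majority. Of 12176 transcripts, 7919 differed (65.0%): 3947 (32.4%) had the higher level in Sedum plumbizincicola and 3972 (32.6%) in Sedum alfredii, with a median log2 fold change of 1.24 and -1.21 respectively. The test was edgeR's quasi-likelihood test over 4 against 2 libraries with dose as a term, at an adjusted p of 0.05. TMM scaling centres the log2 fold changes (their median was 0.02), so the near-equal numbers on the sides follow largely from the scaling and are no finding. In 8718 transcripts (71.6%) the 4 Sedum plumbizincicola levels and the 2 Sedum alfredii levels did not overlap, 4361 with Sedum plumbizincicola above and 4357 with it below. Of the 7919 calls 7759 were of this kind. In such whole shoots, fewer cells of a type and less RNA per cell cannot be told apart, and neither can expression and how well each species' reads aligned to the common transcript set.

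The differences were graded, with most of them modest. The median absolute log2 fold change was 0.84, a 1.79-fold difference, and the upper quartile was 1.44, or 2.72-fold. Within 0.5 in log2 stood 3750 transcripts (30.8%), of which 57 above and 85 below passed the test. Between 2-fold and 4-fold 1840 of 1870 were called on the Sedum plumbizincicola side and 1756 of 1776 on the Sedum alfredii side. Beyond 4-fold there were 756 transcripts on the Sedum plumbizincicola side and 726 on the Sedum alfredii side, and beyond 16-fold 43 and 58. Tested against a 2-fold difference with edgeR's glmTreat, 3013 (24.7%) passed, 1498 higher and 1515 lower in Sedum plumbizincicola. The smallest called difference was 0.41 in log2 and the largest that was not called was 3.50.

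**Figure D1:**
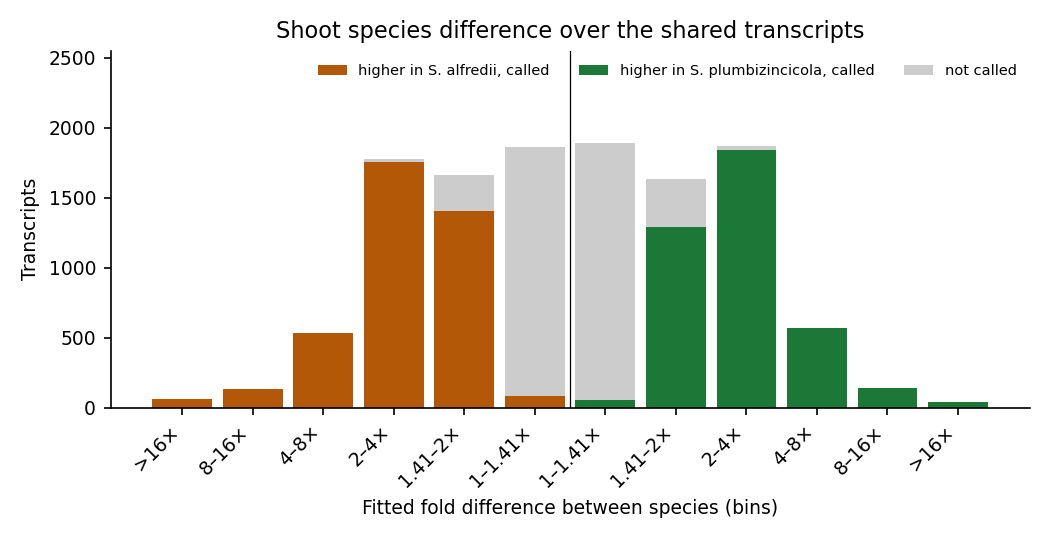
Number of transcripts (vertical axis) in bins of the fitted fold difference between species (horizontal axis), with Sedum alfredii-higher bins on the left and Sedum plumbizincicola-higher bins on the right; coloured parts passed edgeR's test at an adjusted p of 0.05 and grey parts did not. The scaling centres the differences, so the sides hold similar numbers (3947 and 3972 calls), and nearly all transcripts beyond 2-fold passed.

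The split between the sides depended on the scaling of the libraries. With library totals in place of TMM in the same edgeR fit, an alternative chosen after seeing the data, 5759 were called higher and 2401 lower in Sedum plumbizincicola, and the median log2 fold change was 0.50. Of the 7919 calls 6348 were also made that way in the same direction. On the deposited TPM values, which divide reads by transcript length and set each library to the same sum, limma on log2(TPM + 1) called 5637 higher and 2042 lower in Sedum plumbizincicola, with the median also at 0.50. Limma on log2(CPM + 1) with TMM scaling, likewise added after seeing the data, called 3889 and 3872, so the change of test alone did not move the split. The Sedum alfredii libraries were more concentrated: the 100 most abundant kept transcripts held 38.7% and 31.6% of the reads of its untreated and Cd-treated shoot, against 24.0% to 26.7% in Sedum plumbizincicola. The transcript c42708_g2 was first in all 6 libraries, with 4.93% and 3.05% of reads in Sedum alfredii and 2.16% to 2.57% in Sedum plumbizincicola; it is named because it led every library, after its values were seen.

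Called shares rose with the level of the transcript, and the side of the calls shifted. In the lowest of 5 equal groups by level (5.21 to 15.2 CPM) 51.4% of transcripts were called and 57.1% of those calls were higher in Sedum plumbizincicola. In the highest of them (70.5 CPM and above) 71.9% were called and 42.2% of the calls were higher in Sedum plumbizincicola. The standard error fell over the same range, from a median of 0.26 to 0.20 in log2. The minimum of 10 counts equals a higher CPM in the shallower Sedum plumbizincicola libraries, so near it transcripts low in that species are left out more readily. How far this set the 57.1% in the lowest group was not tested. The reads follow the same order by construction of the lists: transcripts called higher in Sedum alfredii held 61.4% and 58.7% of its untreated and Cd-treated reads and 28.5% to 30.1% of those in Sedum plumbizincicola.

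The leading transcript on the hyperaccumulator side was c33410_g1. Its levels were 803 and 732 CPM in untreated libraries A and B and 1009 and 914 CPM in Cd-treated libraries A and B of Sedum plumbizincicola, against 7.33 CPM without and 8.31 CPM with Cd in Sedum alfredii. All 4 values of the one species stood far above both of the other, and each species stayed at its own level at both doses. The fitted log2 fold change was 6.77 (SE 0.30, adjusted p = 2.89e-07 by edgeR), a 109-fold difference. With offsets for effective length it was 5.82, or 56.3-fold, still called.

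The next, c45296_g3, stood at 1844 and 1758 CPM without Cd and 1602 and 1362 CPM with Cd in Sedum plumbizincicola, and at 22.8 and 16.3 CPM in Sedum alfredii. Here too the groups lay wide apart at both doses, with a log2 fold change of 6.40 (SE 0.31, edgeR adjusted p = 3.55e-07). In roots c45296_g3 was at or near 0, between 0 and 0.90 CPM in the 6 root libraries of both species, whereas c33410_g1 was higher still in Sedum plumbizincicola roots, at 9930 to 14073 CPM against 51.0 and 54.2 CPM in Sedum alfredii.

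On the Sedum alfredii side the leaders were c45790_g1 and c35301_g2, and both were raised further in its Cd-treated shoot. c45790_g1 had 1423 CPM without and 8650 CPM with Cd in Sedum alfredii, against 16.0 and 17.7 CPM without Cd and 28.7 and 27.6 CPM with Cd in Sedum plumbizincicola (log2 fold change -7.44, SE 0.41, edgeR adjusted p = 9.12e-07). c35301_g2 had 125 CPM and, with Cd, 2221 CPM in Sedum alfredii and 6.33 to 7.26 CPM in the 4 Sedum plumbizincicola libraries (log2 fold change -6.65, SE 0.93, edgeR adjusted p = 0.00137). Without the Cd-treated Sedum alfredii library their log2 fold changes were -6.40 and -4.19. Without the untreated one they were -8.26 and -8.35, and all were still called. The size of both thus differed with the Sedum alfredii library used. With 1 library at each dose, library and dose cannot be told apart here. Without Cd-treated library A or B of Sedum plumbizincicola the value of c35301_g2 was -6.04 or -6.06. In the TPM fit, with its general shift of 0.50, c33410_g1 stood at 6.16, c45296_g3 at 7.26, c45790_g1 at -6.42 and c35301_g2 at -5.53, each called by limma.

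**Figure D2:**
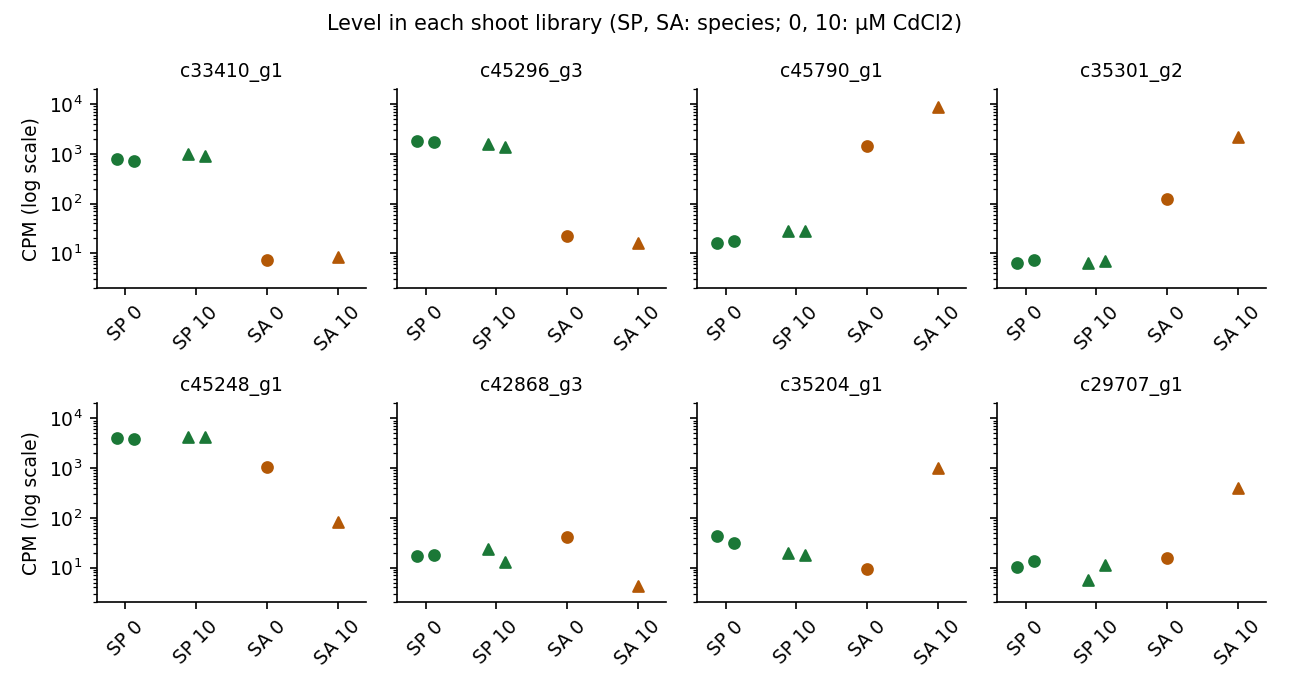
Level in CPM (vertical, log scale) of 8 transcripts in each of the 6 shoot libraries, 1 point per library, circles without Cd and triangles with 10 µM CdCl2; SP is Sedum plumbizincicola and SA is Sedum alfredii. The upper row holds the leading species differences and the lower row the leading changes of the species difference with dose. In the lower row the Sedum alfredii points move further between doses than the Sedum plumbizincicola points.

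Most species differences were present at both doses. Taken dose by dose (2 libraries against 1 in each, with the Sedum alfredii libraries assumed to vary like those of Sedum plumbizincicola), 6710 transcripts (55.1%) differed in untreated and 6579 (54.0%) in Cd-treated shoots by edgeR. In both lists with the same sign were 5264, which is 78.5% of the untreated list and 80.0% of the Cd-treated list, and 39 were in both with opposite signs. Between doses the log2 difference of a transcript moved by a median of 0.35, and by more than 1 in 1148 transcripts (9.43%). DESeq2's Wald test called fewer at each dose, 4041 and 4020.

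The leaders of the single doses give the range. In untreated shoots c35711_g1 had the largest excess in Sedum plumbizincicola, with 1478 and 994 CPM against 10.4 CPM (log2 difference 6.88, SE 0.39, edgeR adjusted p = 8.85e-07), followed by c33410_g1. With Cd it stood at 1054 and 958 CPM against 24.9 CPM, a narrower log2 difference of 5.33. The largest untreated excess in Sedum alfredii was that of c40198_g1, with 2127 CPM against 14.8 and 13.6 CPM (log2 difference -7.22, SE 0.38, edgeR adjusted p = 1.90e-06). With Cd its levels were 1457 CPM in Sedum alfredii and 27.3 and 57.1 CPM in Sedum plumbizincicola, and the difference was -5.11. For neither transcript was the change between doses called (edgeR adjusted p = 0.180 and 0.138 for the interaction).

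In Cd-treated shoots the widest gaps were on the Sedum alfredii side. After c35301_g2 (log2 difference -8.35, SE 0.26, edgeR adjusted p = 2.62e-08) came c45677_g1, with 8106 CPM in Sedum alfredii against 16.2 and 34.6 CPM in Sedum plumbizincicola. Its log2 difference was -8.32 (SE 0.44, edgeR adjusted p = 6.13e-06). Without Cd-treated library A it was -7.88, and without Cd-treated library B it was -8.96. In untreated shoots c45677_g1 had 178 CPM in Sedum alfredii and 21.1 and 12.2 CPM in Sedum plumbizincicola. The order of the species was thus the same at both doses, with a gap that was wider under Cd by 4.91 in log2 (SE 0.62, edgeR adjusted p = 0.0177).

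The dependence of the species difference on dose was tested as an interaction. It was called for 108 of 12176 transcripts (0.887%): in 69 the Sedum plumbizincicola level was lower relative to that of Sedum alfredii with Cd than without, and in 39 it was higher. In 29 of the 108 the species changed places, with a called difference of opposite sign at each dose. In 20 of these Sedum plumbizincicola was higher without Cd and Sedum alfredii with it, and in 9 the reverse held. A further 39 kept the sign of a called difference at both doses, 30 had a called difference only under Cd and 10 only without it.

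**Figure D3:**
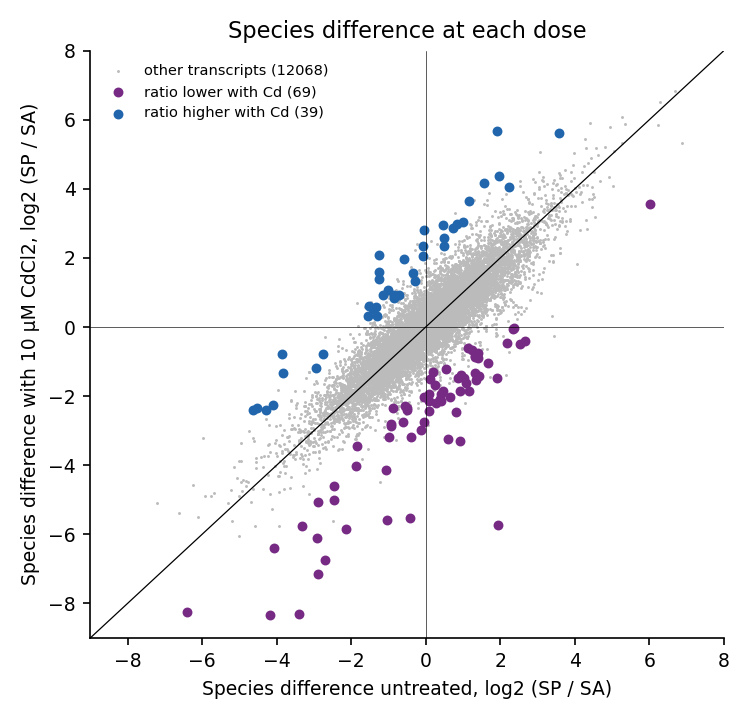
Fitted log2 difference between species (SP, Sedum plumbizincicola, over SA, Sedum alfredii) without Cd (horizontal) and with 10 µM CdCl2 (vertical), 1 point per transcript, with the line of equal difference. Most of the 12176 points follow the line, while the 69 purple points below it and the 39 blue points above it are those whose difference depended on dose by edgeR's interaction test.

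In these transcripts it was mainly the Sedum alfredii level that differed between doses. Among the 69, the ratio of the Cd-treated to the untreated Sedum alfredii library ran from 1.05 to 6.69 in log2 (median 2.38), and 50 were at least 4-fold higher. Their Sedum plumbizincicola log2 fold changes lay between -0.998 and 0.74 (median -0.13), and none was beyond 2-fold. Over all 12176 kept transcripts only 37 were beyond 2-fold in Sedum plumbizincicola, so staying within it is not particular to these transcripts. Among the 39, the Sedum alfredii log2 ratios lay between -3.69 and -1.20 (median -1.87), 17 of them at least 4-fold lower, and the Sedum plumbizincicola changes between -0.36 and 0.84 (median 0.07). In all 108 the Sedum alfredii ratio was the larger in size, a description of the same libraries that gave the calls. The share of all kept transcripts with this order was not counted. Over all kept transcripts the median absolute log2 ratio between doses was 0.31 in Sedum alfredii. It was smaller in Sedum plumbizincicola, at 0.21 between its A and 0.22 between its B libraries. With signs kept, the medians over all kept transcripts were 0.01 in Sedum alfredii and -0.003 in Sedum plumbizincicola.

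The read share of the 69 transcripts describes these picked transcripts and not the whole Sedum alfredii shoot. They took 0.703% of the reads of its untreated library and 5.52% of its Cd-treated library, against 0.513% to 0.631% in the 4 Sedum plumbizincicola libraries at either dose. In the Cd-treated Sedum alfredii library, c45790_g1 and c45677_g1, both among the 69, held 26034 and 24397 of the 3580013 reads. The 39 went from 2.28% to 0.696% in Sedum alfredii and held 2.54% to 2.71% in Sedum plumbizincicola. Both orders follow from how the transcripts were picked, on these same libraries. The median log2 difference between the species over the 69 was 0.25 without Cd and -2.15 with it, and over the 39 it was -0.85 and 1.38.

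**Figure D4:**
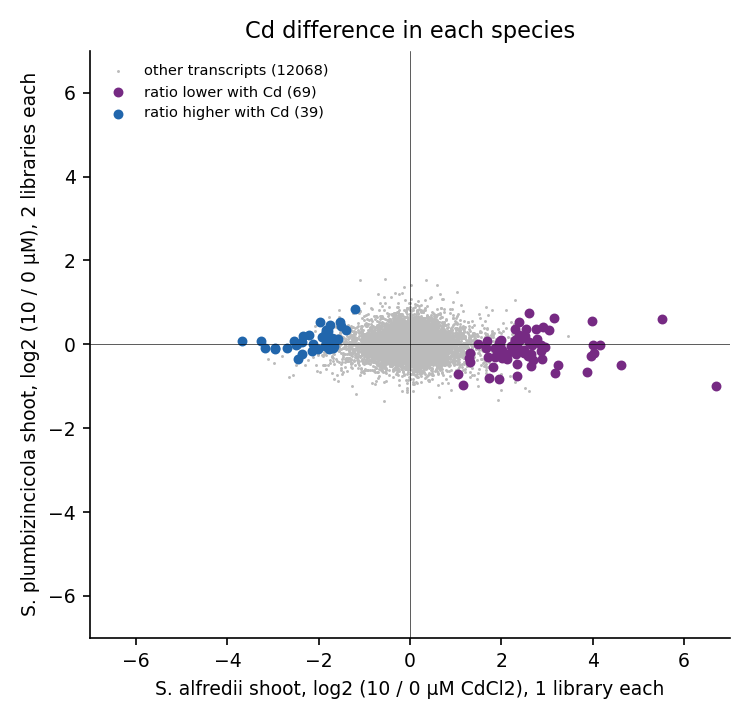
Log2 difference between 10 µM and 0 µM CdCl2 in Sedum alfredii shoots (horizontal, 1 library per dose) and in Sedum plumbizincicola shoots (vertical, 2 libraries per dose), 1 point per transcript on axes of equal scale. The coloured points, 69 and 39 transcripts with a called interaction, spread along the Sedum alfredii axis and stay within 1 of zero on the other. On that other axis all but 37 of the 12176 transcripts did so.

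The transcript c35204_g1 had the strongest dependence on dose. In Sedum plumbizincicola its levels were 43.0 and 31.3 CPM without Cd and 19.5 and 17.8 CPM with Cd, and in Sedum alfredii 9.58 CPM without and 990 CPM with Cd. The species changed places: the log2 difference was 1.95 (SE 0.31, edgeR adjusted p = 3.80e-04) without Cd and -5.73 (SE 0.25, edgeR adjusted p = 2.64e-07) with it, an interaction of -7.68 (SE 0.41, edgeR adjusted p = 1.66e-05). Averaged over doses this was also the largest species difference that was not called (-3.50, SE 2.34, edgeR adjusted p = 0.261).

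The second on that side, c29707_g1, was similar in the species without Cd, at 10.1 and 13.6 CPM in Sedum plumbizincicola and 15.8 CPM in Sedum alfredii, a log2 difference of -0.41 that was not called (SE 0.35, edgeR adjusted p = 0.341). With Cd it had 5.56 and 11.2 CPM against 390 CPM, and the interaction was -5.12 (SE 0.49, edgeR adjusted p = 0.00127). Without Cd-treated library A the interaction was -4.70, and without Cd-treated library B it was -5.71. The species lay close without Cd and stood wide apart with it.

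In the other direction c45248_g1 stood at 3948 and 3906 CPM without Cd and 4186 and 4160 CPM with Cd in Sedum plumbizincicola, while in Sedum alfredii it went from 1047 to 81.4 CPM. Sedum plumbizincicola was higher at both doses, by 1.91 and 5.68 in log2, and the interaction was 3.77 (SE 0.31, edgeR adjusted p = 5.16e-04). The transcript c42868_g3 was at 16.9 and 18.1 CPM without and 23.6 and 13.1 CPM with Cd in Sedum plumbizincicola, and at 41.4 and 4.32 CPM in Sedum alfredii. The species changed places here, at -1.24 and 2.08, with an interaction of 3.32 (SE 0.57, edgeR adjusted p = 0.0266) that was not called without Cd-treated library A (0.146), with offsets for transcript length (0.0540) or by limma (0.0707), and for which DESeq2 gave no adjusted p. Its adjusted p ranged from 1.39e-09 to 0.146 over the alternatives.

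The number of dose-dependent transcripts changed with single libraries. All of the spread in this test comes from the Sedum plumbizincicola pairs. By edgeR 586 were called without untreated library A, 487 without untreated library B, 13 without Cd-treated library A and 35 without Cd-treated library B. It was 51 with offsets for the effective length of each transcript and 23 by limma on log2(TPM + 1), and DESeq2 called 91, of which 78 were among the 108, and gave no adjusted p for 17 of the 108. Of the 108, 9 were called under all 12 alternatives that kept these transcripts as the unit at full depth, c35204_g1, c29707_g1 and c45248_g1 among them.

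The Cd difference within each species was then set side by side. In Sedum plumbizincicola shoots edgeR called 0 of 12176 transcripts (0%), with 309 at an unadjusted p under 0.05, and DESeq2 and limma also called 0. Without untreated library A or B, edgeR called 93 and 112. The smallest p-values were those of c46171_g1, at 21.9 and 22.7 CPM without and 73.7 and 54.7 CPM with Cd (log2 fold change 1.52, SE 0.23, edgeR adjusted p = 0.576), and c40340_g2, at 19.8 and 20.4 CPM without and 63.0 and 44.0 CPM with Cd (1.41, SE 0.25, edgeR adjusted p = 0.988). In both the Cd-treated levels stood above the untreated ones. The test did not call them over all libraries, but called both without untreated library A and without untreated library B (edgeR adjusted p = 1.02e-04 to 0.00300; over the alternatives without the letters as a block, 1.02e-04 to 1). Sedum alfredii showed 19.7 and 25.3 CPM for c46171_g1 and 22.0 and 22.3 CPM for c40340_g2. Toward lower levels the smallest p-values were those of c35204_g1 (-0.998, SE 0.24) and of c42930_g1, at 14.3 and 9.98 CPM without and 5.56 and 4.68 CPM with Cd (-1.25, SE 0.32), neither called, with an edgeR adjusted p of 1 in each. These too depended on the untreated libraries. Without untreated library B their log2 fold changes were -1.21 and -1.48, and both were called. Without untreated library A they were -0.75 and -0.96, and neither was called.

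In Sedum alfredii, with 1 library per dose and so no test, 116 transcripts (0.953%) differed at least 4-fold between doses, 77 higher and 39 lower with Cd. The same count was 3 and 1 between doses in the A and the B libraries of Sedum plumbizincicola, and 21 and 3 between its letters without and with Cd. With all libraries thinned to equal depth, the counts were 93 for Sedum alfredii, 3 and 2 between doses and 14 and 2 between letters. The widest ratios were those of c35204_g1, with 34 and 2980 reads (103-fold, 95% exact counting interval 73.8 to 150), and c45677_g1, with 631 and 24397 reads (45.6-fold, 42.1 to 49.4). In TPM, which divides by the length found in each library, the ratio of c45677_g1 was 143-fold and that of c35204_g1 112-fold. The lowest were those of c45248_g1, with 3717 and 245 reads (12.9-fold lower, 11.3 to 14.7), and c42868_g3, with 147 and 13 reads (9.59-fold lower, 5.44 to 18.4). The intervals cover counting error only.

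The root libraries, which took no part in the shoot tests, gave a second reading of the same transcripts. Of the 12176, 10146 had at least 10 counts in each of the 6 root libraries too, and in roots 6046 of these (59.6%) differed between the species by edgeR, 2966 (29.2%) with the higher level in Sedum plumbizincicola and 3080 (30.4%) in Sedum alfredii. Of 3436 transcripts higher in Sedum plumbizincicola shoots, 1963 (57.1%) were also higher in its roots and 255 (7.42%) lower. Of 3146 higher in Sedum alfredii shoots, 1994 (63.4%) were also higher in its roots and 162 (5.15%) lower. The shared transcripts made up 66.2% and 64.7% of the root lists.

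Larger shoot differences went with more agreement in roots. Among transcripts beyond 2-fold in shoots, 903 of 1299 (69.5%) on the Sedum plumbizincicola side and 873 of 1081 (80.8%) on the Sedum alfredii side were called the same way in roots. The median log2 differences in roots were 0.995 and -1.21, beside 1.98 and -1.92 in shoots, where the transcripts were picked for their size. Across the 10146 transcripts the log2 differences in the 2 organs had a Pearson correlation of 0.641, across transcripts that share a transcript set and so any unequal alignment. The difference between organs itself was not tested.

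**Figure D5:**
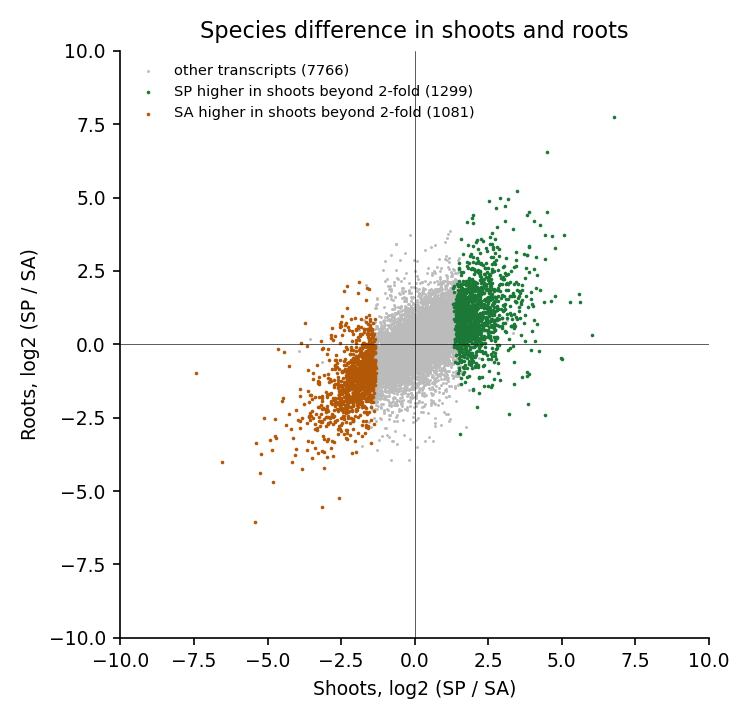
Fitted log2 difference between species (SP, Sedum plumbizincicola, over SA, Sedum alfredii) in shoots (horizontal) and roots (vertical) for the 10146 transcripts measured in both organs, 1 point per transcript. Of the coloured transcripts, beyond 2-fold in shoots, 69.5% on the right and 80.8% on the left were called in the same direction in roots.

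The dose-dependent transcripts could also be read in roots. Of the 69 raised with Cd in the Sedum alfredii shoot, 53 were measured in all root libraries, and there 40 had a higher level with Cd in the Sedum alfredii root (7 by 2-fold or more; median log2 ratio 0.25). Over all 10146 transcripts 52.0% had a ratio above 0 in the Sedum alfredii root and 50.1% in Sedum plumbizincicola roots. In Sedum plumbizincicola roots 29 of the 53 (54.7%) were higher, a share near that background, and 1 by 2-fold or more (median 0.05). Of the 39 lowered ones 19 were measured, 17 had a lower level with Cd in the Sedum alfredii root and 7 by 2-fold or more (median -0.69), and 13 were lower in Sedum plumbizincicola roots with none at 2-fold (median -0.11). Over the 10146 transcripts in the Sedum alfredii root 0.759% were higher and 0.808% lower with Cd by 2-fold or more, with a median of 0.01. In Sedum plumbizincicola roots these shares were smaller, at 0.197% and 0.158%, with a median of 0.001. The single library per dose in Sedum alfredii leaves these ratios without a test.

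Some called transcripts shared a component, the unit of the assembly that the first part of an ID names. How alike the sequences within a component are was not measured here. In 1068 components 2 or more transcripts were kept, and in 516 at least 2 were called. Of these 516, 184 (35.7%) held calls in opposite directions, 141 were all on the Sedum plumbizincicola side and 191 all on the Sedum alfredii side. In the 184, the called members stood a median of 2.93 apart in log2, but the sums over the whole component differed between the species by a median of 0.53, and 130 of the 184 sums lay within 2-fold. In the other 332 components the sums differed by a median of 1.41, and 76 lay within 2-fold. Sums over members of opposite sign cancel by construction, so the contrast between these kinds of component is fixed by how they were picked. The 389 called members of the 184 components made up 4.91% of all calls.

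The widest such pair included a leader of the species comparison. In component c45296, with 8 clusters of which 4 were kept, c45296_g3 was higher in Sedum plumbizincicola by 6.40 in log2, as given above, and c45296_g2 was lower by a similar amount, at 13.1 and 13.6 CPM without and 18.1 and 12.2 CPM with Cd against 1312 and 635 CPM in Sedum alfredii (-6.03, SE 0.30, edgeR adjusted p = 4.39e-07; -5.39 without the untreated Sedum alfredii library). Summed over the component the levels were 2792 to 3704 CPM in Sedum plumbizincicola and 1771 and 944 CPM in Sedum alfredii, a 2.44-fold difference. In c34937, with 3 clusters, c34937_g2 had 994 to 1219 CPM in Sedum plumbizincicola and 232 and 67.1 CPM in Sedum alfredii (3.03, SE 0.43, edgeR adjusted p = 3.09e-04). Without the untreated Sedum alfredii library it was 4.04 and without the Cd-treated one 2.24, and its interaction with dose was called (1.81, SE 0.33, edgeR adjusted p = 0.0343). Its partner c34937_g3 had 7.02 to 9.07 CPM against 301 and 149 CPM (-4.74, SE 0.20, edgeR adjusted p = 2.89e-07). The sums were 1025 to 1251 CPM and 847 and 356 CPM, 1.89-fold apart. Where members share reads, the level of one alone is uncertain.

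The structure of a transcript was related to the side of its difference. The weighted length, which RSEM computes in each library from the isoforms it finds there, was more than 1.1-fold longer in Sedum plumbizincicola in 3352 transcripts, and 1372 of their 2154 calls were higher in that species. It was more than 1.1-fold longer in Sedum alfredii in 2764, where 1161 of 1850 calls were higher in Sedum alfredii. Within 1.1-fold were 6060 transcripts, with 1886 and 2029 calls on the respective sides. Longer isoforms collect more reads per molecule, and with offsets for effective length 7394 transcripts were called, 3673 higher and 3721 lower. Of the 7919 calls 6532 were also made that way in the same direction. TMM balances the sides in this fit too, so its split cannot show whether the relation to length remained. Single-isoform transcripts, 949 in number, were called at 70.5%, with 382 on the Sedum plumbizincicola and 287 on the Sedum alfredii side, against 64.1% of the 5745 with 5 or more isoforms, with 1785 and 1900. The part of structure in these counts was not tested further.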

How the data were processed

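Per the submitters' processing notes, FastQC, Bowtie and RSEM were used, with no versions. The assembly of the transcript set and any trimming are not described in the labels. Per the file headers, the authors deposited expected counts, TPM, FPKM and isoform-weighted lengths in bases for 66584 clusters. The deposited expected counts, whole in 98.7% to 99.2% of the shoot values above 0, were rounded for the tests. The deposited TPM entered an alternative only, and the deposited FPKM were not used. The pooled library of another sequencing platform was not analysed here.

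Groups came from the labels. The tests were run in R 4.3.3 with edgeR 4.0.16 (TMM, robust quasi-likelihood F-test, two-sided, Benjamini-Hochberg, threshold 0.05) on transcripts with at least 10 counts in each shoot library. The species fit had terms for species and dose (3 residual degrees of freedom), and the fit by species and dose had 2. SEs were taken from the F statistic. Replicate counts varied beyond sampling (chi-square over degrees of freedom 5.49 untreated and 3.39 with Cd). In the fit by species and dose, p-values measure the spread within the Sedum plumbizincicola pairs alone. In the species fit the spread also holds any change of the species difference with dose. A count of 3 equals 0.642 to 1.61 CPM by library.

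Named transcripts had the 2 highest and 2 lowest log2 differences per comparison among calls (for the species comparison, with groups that do not overlap; for Cd in Sedum plumbizincicola the smallest p; for the Sedum alfredii ratios, a minimum of 100 reads in the larger library), and the 2 components with the widest span between called members. Members, rules and lists were chosen with earlier results of these data known. Alternatives used DESeq2 1.42.0, limma 3.58.1, other scalings, filters, units and left-out libraries. The tests were checked on simulated counts.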

Additional observations from a re-analysis of the deposited data

Results flagged for a closer look

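The Cd difference of shoots was not the same in the species for 108 transcripts, by edgeR's test of the interaction between species and dose, with Sedum alfredii represented by 1 library per dose. The named ones were c35204_g1 (-7.68 in log2) and c29707_g1 (-5.12), where Sedum alfredii rose relative to Sedum plumbizincicola, and c45248_g1 (3.77) and c42868_g3 (3.32), where it fell relative to it. Whether the Cd-treated Sedum alfredii library stands for its group was not tested.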

How the results depend on the processing

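The species count stayed within 1.5 times of 7919 under 18 of 22 alternatives, which include the thinned libraries (6333) and the sums per component (7465), and ran from 6596 to 7624 with 1 library left out. It was 15107 with filterByExpr, 21738 with at least 1 count in any shoot library, 3323 with at least 50 counts in each, and 330 over single-isoform clusters alone in their component, where the number tested differs. The 2-fold test gave 552 against a log2 threshold of 2 and 2593 to 2946 with 1 library left out. The interaction count was 23 by limma on log2(TPM + 1), 51 with length offsets, 71 after thinning, 168 with filterByExpr and 446 with at least 1 count, and ran from 13 to 586 with 1 Sedum plumbizincicola library left out. Within single doses DESeq2 gave 4041 (untreated) and 4020 (Cd), filterByExpr 13231 and 13193, and leaving out 1 library 6014 to 6739 and 4852 to 7382. Cd calls in Sedum plumbizincicola ran from 0 to 112 with 1 library left out. The Sedum alfredii ratio count was 951 at 2-fold and 47 with at least 50 counts. Root calls ran from 4118 to 5883 with 1 library left out. The causes were not tested.

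With the letters A and B as a replicate block the interaction count was 1002, with 107 of the 108 among them, Cd calls in Sedum plumbizincicola were 104, and the species count was 7257. The libraries of a letter deviated together (correlation 0.292 across transcripts), but the labels do not say that a letter marks shared plants. For the named transcripts no alternative turned a direction, but they were picked for extreme differences or small p-values, which favours that outcome. Of 320 values 306 kept their side of the threshold or, for the untested Sedum alfredii ratios, lay within the counting interval. The ratios under the 2-fold alternative repeat the main ones and could not move. A call was lost in 3, all of c42868_g3, and gained in 10, all for Cd in Sedum plumbizincicola. The untested ratio of c45677_g1 moved beyond its counting interval in TPM. With the block c46171_g1 and c40340_g2 were called for Cd in Sedum plumbizincicola (edgeR adjusted p = 6.10e-10 and 1.51e-07). So were c35204_g1 and c42930_g1, toward lower levels (edgeR adjusted p = 0.00140 and 0.0371). The interaction and the contrasts at 1 dose could not be fitted without the Sedum alfredii library they need. With 1 Sedum alfredii library per dose, its own spread is unknown at any depth.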
